A study of Mus musculus with 14 samples.

Results

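The genes described here were taken to represent the axoneme of motile cilia, the microtubule scaffold that lets a cilium beat, and the factors that build it. They were chosen by symbol alone: every gene present in the tables of both experiments whose name follows the Dnah, Dnai, Dnaaf, Rsph or Cfap numbering, plus Foxj1. The rule took 60 of the 51211 symbols in the tables. These were 15 dynein heavy chains (Dnah), 5 dynein axonemal assembly factors (Dnaaf), 8 radial spoke genes (Rsph), 31 cilia and flagella associated proteins (Cfap) and Foxj1. Of the Cfap genes 7, Cfap36 and Cfap410 among them, were put in a class of other or no assigned place in the axoneme. No symbol matched the Dnai pattern, because the tables still list the axonemal intermediate chains under the older names Dnaic1 and Dnaic2, which are not members. RNA was measured in the olfactory epithelium of 14 mice at postnatal day 5 (P5). In the Kir2.1 experiment, 3 mice carried OMP-IRES-tTA together with tetO-Kir2.1-IRES-tauLacZ, and their 3 control mice carried a single OMP-IRES-tTA allele. The Omp promoter drives the transgene in mature olfactory sensory neurons (OSNs), and the study states that the silencing also reaches vomeronasal neurons. Expression of the transgene in other cell types was not measured here. The controls share the tTA allele. In the PEA experiment, 4 wild-type mice were exposed to the odor 2-phenylethylamine (PEA) from P0 to P5 and 4 wild-type mice were not. The labels give C57BL/6 for all groups, whereas the methods of the study name CD-1 pups for the odor exposure. They also mark the Kir2.1 mice with the name of an adult doxycycline group, although these mice were taken at P5. The methods of the study name littermates for the Kir2.1 pups. No source used here says which mice shared a litter, so the p-values measure only the spread between these mice.

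Motile cilia carry outer and inner rows of dynein arms on a ring of doublet microtubules, and radial spokes connect the ring to a central pair. The arms are assembled in the cytoplasm with the help of the assembly factors and are then carried into the cilium. Foxj1 is the forkhead transcription factor that switches on this program in multiciliated cells. In the nose such cells line the respiratory epithelium that borders the olfactory epithelium. The cilia of OSNs serve odor detection, do not beat and lack dynein arms. Within the gene set, the protein of Cfap69 is also found in OSN cilia, and the other members were not screened for a place outside motile cilia. The 2 comparisons asked whether silencing of OSNs or early odor exposure changed the level of these genes, and in bulk tissue fewer cells of a type and less RNA per cell cannot be told apart.

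Several members are near-copies of each other, which bears on how their reads were divided. Dnah7a, Dnah7b and Dnah7c, heavy chains of an inner arm, lie on chromosome 1 of GRCm38 at chr1:53397006-53706784 on the minus strand, chr1:46066315-46373546 on the plus strand and chr1:46425592-46807476 on the plus strand. Their coding sequences were between 96.8% and 97.3% identical. Of all 40-base stretches of the longest coding transcript, the length of the Kir2.1 reads, 47.7% in Dnah7a, 55.6% in Dnah7b and 55.8% in Dnah7c also occurred in a transcript of another gene. With stretches of 150 bases, the length of the PEA reads, the shares were 10.4%, 11% and 13.3%. The windows below show, from the GENCODE transcripts, a place where a 40-base read cannot separate Dnah7b from Dnah7c. Capitals mark the bases at which the 3 genes are not all alike, and the windows start at coding base 807 in Dnah7a and Dnah7c and 939 in Dnah7b:
Dnah7a: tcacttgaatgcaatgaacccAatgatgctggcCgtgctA
Dnah7b: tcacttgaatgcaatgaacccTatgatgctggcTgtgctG
Dnah7c: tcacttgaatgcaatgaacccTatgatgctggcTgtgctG

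In a second window, which starts at coding base 14 in Dnah7a and Dnah7c and 146 in Dnah7b, each of the 3 genes can be told from both others:
Dnah7a: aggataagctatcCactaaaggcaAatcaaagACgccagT
Dnah7b: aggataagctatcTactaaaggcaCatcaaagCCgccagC
Dnah7c: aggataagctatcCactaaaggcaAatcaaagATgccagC

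Rsph3a and Rsph3b, which encode a protein of the spoke stalk, were 99.2% identical in their coding sequence, and 77.4% and 78.6% of their 40-base stretches were found in another gene. Dnaaf4 shared 58.4% of these stretches with the overlapping gene model Gm44503, and Dnaaf2 shared 38.5%, mostly with Gm49383. The values of these 7 genes are therefore uncertain as a division of reads between copies, and 10.8% of Rsph10b was shared as well.

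Transcription of motile cilium genes is known to be driven by RFX factors, which bind the X-box, and by Foxj1, which binds a forkhead motif. RefSeq promoter windows (GRCm38.p6, 250 bases before to 50 bases after the start site) were on hand for 47 of the 60 members, and not for Foxj1 itself. An X-box, searched on the strand of each gene only, was found in 1 of the 47 windows (2.13%), compared with 1.1% of 27025 genes. That member was Cfap298, a factor of dynein arm assembly, which held 2 copies. They are shown in capitals on the minus strand, within chr16:90935017-90935044 and chr16:90934897-90934925. The capitals begin 188 and 69 bases before the RefSeq start, and both copies lie in an exon of a longer GENCODE transcript:
Cfap298 upstream copy: ggttttgGTTGCCCGGGCAACagctact
Cfap298 downstream copy: tttgactGTTGCCCCTGGCAACagccact

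The forkhead letters GTAAACA, on either strand, were found in 3 of the 47 windows (6.38%), compared with 4.05% of all genes. The 3 members were Cfap20, which is bound inside the doublet, Cfap43, part of the tether of an inner arm, and Dnah17, an outer arm heavy chain known from sperm. All are printed from the minus strand, on which each of the genes lies, at chr8:95435038-95435058, chr19:47837403-47837423 and chr11:118129407-118129427. Capitals mark the match, which reads GTAAACA on that strand in Cfap20 and Cfap43 and is its reverse complement in Dnah17. The match of Cfap20 lies upstream of the GENCODE gene, whereas those of Cfap43 and Dnah17 lie within the span of the GENCODE gene but outside its exons:
Cfap20: aggcactGTAAACAcgtgagg
Cfap43: tacaggtGTAAACAgtggcat
Dnah17: ggtacccTGTTTACctgatga

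Each table holds normalized counts, which are estimated reads per gene scaled to make the mice of an experiment comparable. They summed to between 33049111 and 34198478 per mouse in the Kir2.1 experiment and between 11476120 and 12467331 in the PEA experiment. Since the sums come after scaling, sequencing depth is unknown. The transgene was checked first: Kcnj2, which encodes Kir2.1, lay between 986 and 1274 normalized counts in control mice and between 17926 and 24193 in Kir2.1 mice. Omp, the defining marker of mature OSNs, was present in every mouse at no less than 6087. Vomeronasal receptor genes, which mark another sensory organ of the nose, summed to 11186 in Kir2.1 control mouse 1 and to between 1413 and 1710 in the other 5 mice of that experiment. In the PEA experiment they summed to between 2810 and 9832 in control mice 1 to 3 and PEA-exposed mouse 1, and to between 550 and 628 in the other 4 mice.

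The members were well detected. Of the 60, 59 had a mean of at least 10 normalized counts in the Kir2.1 experiment and entered its test, and 58 did so in the PEA experiment. Rsph6a, a spoke head gene known from testis, was below that limit in both, with no mouse above 2.47. Dnah17 was below it in the PEA experiment, between 2 and 12.2. All members together took 0.204% to 0.277% of the normalized counts of a mouse in the Kir2.1 experiment and 0.279% to 0.372% in the PEA experiment.

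Levels of different genes were compared per kb of the longest coding transcript, in control mice and within each experiment. In the Kir2.1 experiment Rsph9, a spoke head gene, was highest at 2914 ± 194 normalized counts per kb (SD, n = 3). Foxj1 (2269 ± 232) and the spoke head gene Rsph1 (2194 ± 368) came next, and the gap between these neighbors was smaller than their spread. The outer arm heavy chains Dnah5 (226 ± 36.9) and Dnah9 (208 ± 24.2) led the heavy chains. In the PEA experiment Cfap36 was highest at 682 ± 122 per kb (SD, n = 4), with Rsph1 (539 ± 219) and Cfap20 (491 ± 59.3) next. The gap from Cfap36 to Rsph1 was smaller than the SD of Rsph1, while that to Cfap20 was larger than the SD of either gene. Foxj1 took place 19 there, at 163 ± 17.1 per kb, and Dnah5 took place 6, at 404 ± 88.6. The libraries of the experiments were prepared and scaled differently, so the orders are given side by side and were not tested against each other. The bottom of the order was shared: Dnah14, Dnah17 and Rsph6a took places 58, 59 and 60 in both.

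**Figure D1:**
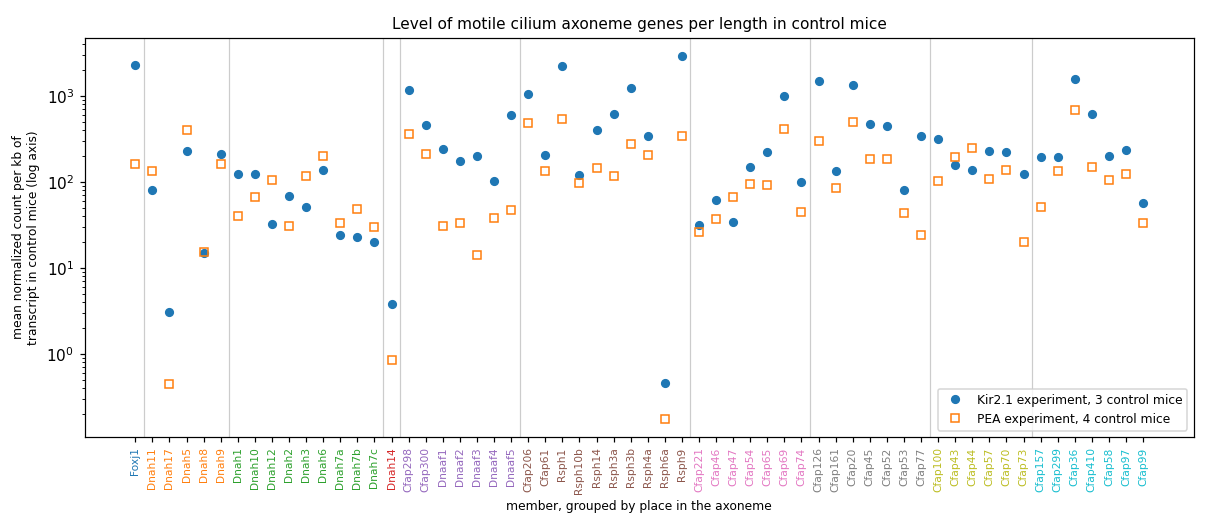
Mean normalized count per kb of transcript in control mice (log axis) for each of the 60 members, grouped by place in the axoneme; filled circles are the 3 control mice of the Kir2.1 experiment and open squares the 4 control mice of the PEA experiment. Rsph9, Foxj1 and Rsph1 are highest in the first and Cfap36 in the second, and Dnah14, Dnah17 and Rsph6a are lowest in both.

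In Kir2.1 mice none of the 59 members tested passed an adjusted p of 0.05 (limma with Benjamini-Hochberg adjustment over all 19807 genes tested), while 0.353% of all genes did. At an unadjusted p under 0.05 there were 9 members, 15.3% of those tested, compared with 11.1% of all genes. Of the 9, 7 had higher values in Kir2.1 mice (Dnah2, Dnah5, Dnah9, Dnah10, Rsph10b, Cfap44 and Cfap161), where 4.93% of all genes did so, and 2 had lower values (Cfap69 and Cfap100), where 6.20% of all genes did so. Dnah9, Dnah10 and Cfap161 are named here after their values were seen. The log2 fold change was above 0 for 48 of 59 members (81.4%), compared with 51.2% of all genes, and its median was 0.19, compared with 0.01 for all genes. Without Kir2.1 mouse 1 it was above 0 for 40 of 59 members (67.8%, all genes 51.9%), and the median was 0.08. The values of the groups did not overlap for 10 members, or 16.9% of those tested, compared with 16.3% of all genes. Of these, 8 were higher (all genes 7.26%) and 2 lower (all genes 9.04%).

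**Figure D2:**
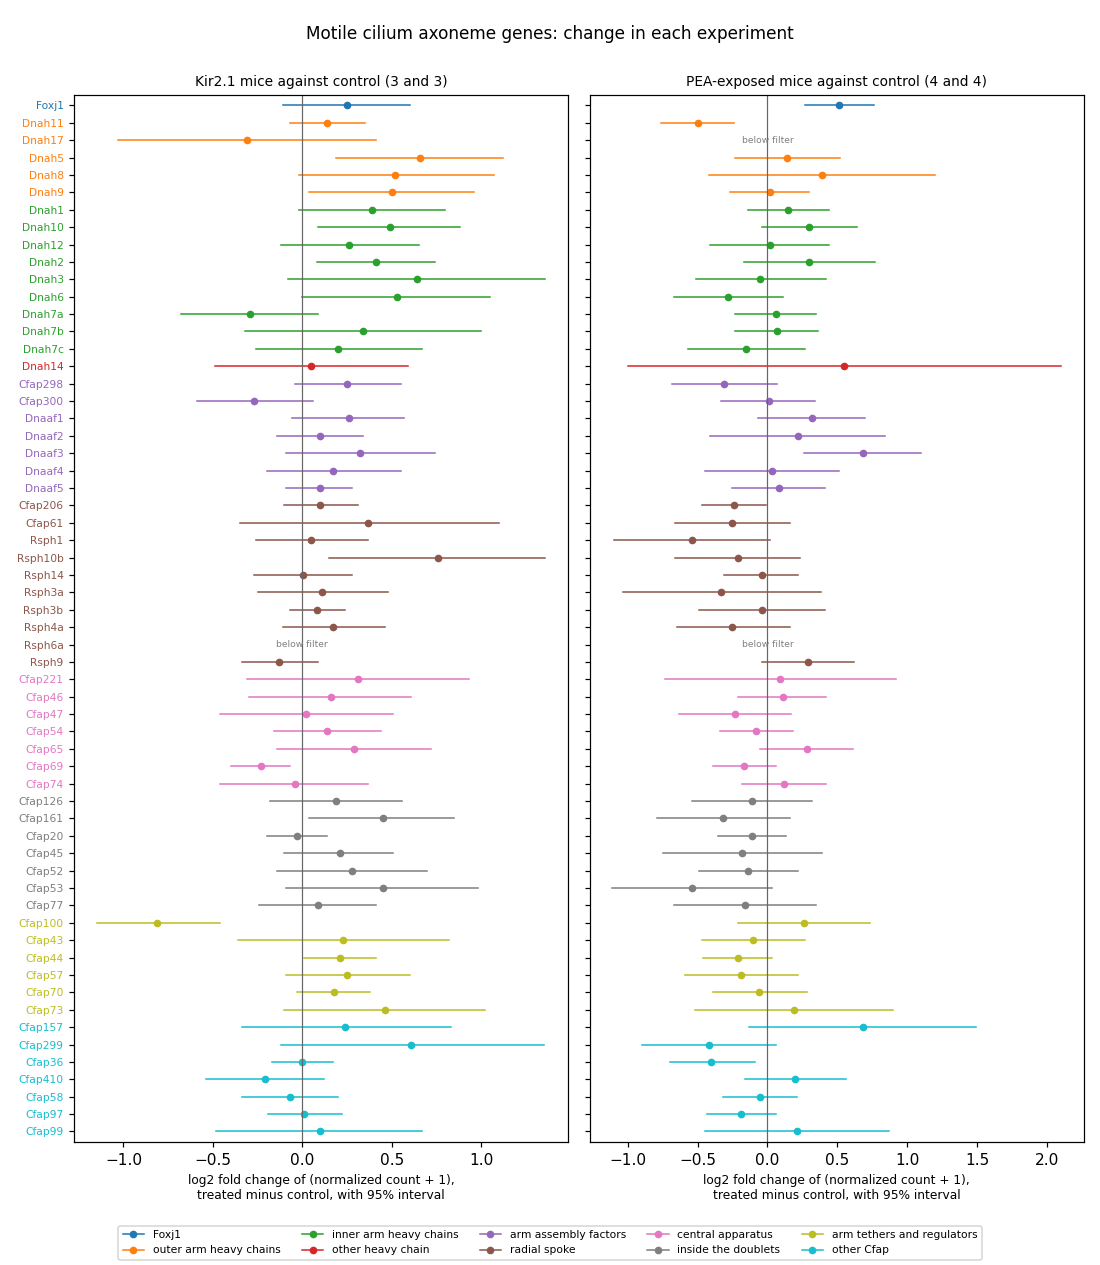
Log2 fold change of the normalized count plus 1 (x axis, treated minus control) with its 95% confidence interval for each member, in Kir2.1 mice (left, 3 and 3 mice) and PEA-exposed mice (right, 4 and 4 mice); colors give the place in the axoneme. On the left 48 of 59 points lie above 0 and Cfap100 lies lowest at -0.81, and on the right 27 of 58 points lie above 0.

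Of the 15 dynein heavy chains, the motors that slide the doublets, 13 had higher values in Kir2.1 mice, with a median log2 fold change of 0.39. The median was 0.22 without Kir2.1 mouse 1 and 0.28 without control mouse 1. Of the 5 outer arm chains 4 were higher, with a median of 0.50, which was 0.28 without Kir2.1 mouse 1 and 0.25 without control mouse 1. Of the 9 inner arm chains 8 were higher, with a median of 0.39, and of 0.22 without Kir2.1 mouse 1. Dnah5 (chr15:28203752-28472052, plus strand), the main motor of the outer arm, measured 2998, 3471 and 4146 normalized counts in control mice 1 to 3 and 7387, 5079 and 4507 in Kir2.1 mice 1 to 3. Every Kir2.1 mouse lay above every control mouse, with a log2 fold change of 0.66 (SE 0.20) and an adjusted p of 0.284. Its partner Dnah9 measured 2595, 2785 and 3244 in control mice and 5511, 3798 and 3183 in Kir2.1 mice. The groups overlapped through Kir2.1 mouse 3, and the log2 fold change was 0.50 (SE 0.20, adjusted p = 0.405). Dnah8, an outer arm chain known from sperm, ranged from 164 to 313 and from 321 to 363 (0.52, SE 0.23, adjusted p = 0.476). Dnah11, found in the outer arms near the base of the cilium, ranged from 1081 to 1196 and from 1137 to 1337 (0.14, SE 0.09). The low Dnah17 was the outer arm chain with lower values (-0.31, SE 0.31).

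Among inner arm chains, Dnah2 and Dnah10, which pair in the same arm, kept their groups apart. Dnah2 measured 885, 921 and 1033 in control mice and 1532, 1199 and 1071 in Kir2.1 mice, which is 0.41 higher on the log2 scale (SE 0.14, adjusted p = 0.341). Dnah10 measured 1556, 1672 and 1935, then 3078, 2296 and 1967 (log2 fold change 0.49, SE 0.17, same adjusted p). In both genes Kir2.1 mouse 1 was highest and Kir2.1 mouse 3 lay just above the top control. Dnah3 had the largest difference of the inner arm chains at 0.64 (SE 0.31, adjusted p = 0.516), with 525 to 815 in control mice and 608 to 1371 in Kir2.1 mice. Dnah6, the most abundant per kb in this class, ranged from 1414 to 2185 and from 1923 to 3312 (0.53, SE 0.22). The near-copies of Dnah7 differed in sign, at -0.29 (SE 0.16) for Dnah7a, 0.34 (SE 0.28) for Dnah7b and 0.20 (SE 0.20) for Dnah7c. Given the share of 40-base stretches they have in common, their separate values are uncertain. Dnah14, of no assigned arm, was at 0.05 (SE 0.23).

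Assembly factors and Foxj1 showed smaller differences. Foxj1 (chr11:116330704-116335399, minus strand) measured 5252, 6260 and 6343 normalized counts in control mice and 8844, 6116 and 6440 in Kir2.1 mice. The groups overlapped, only Kir2.1 mouse 1 standing well above the rest, and the log2 fold change was 0.25 (SE 0.15, adjusted p = 0.633). Of the 7 assembly factors 6 were higher, with a median of 0.17, and of 0.09 without Kir2.1 mouse 1. The largest was Dnaaf3 at 428, 449 and 448 in control mice and 737, 479 and 478 in Kir2.1 mice (0.32, SE 0.18, adjusted p = 0.576). Cfap298, whose promoter holds the X-boxes shown above, had 0.25 (SE 0.12), and Cfap300, another assembly factor, had the lowest value at -0.27 (SE 0.14).

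Of the 9 radial spoke genes tested 8 were higher, with a median of 0.10. Rsph10b (chr5:143933035-143985719, plus strand) had the largest value of all members. It measured 285, 295 and 449 in control mice and 800, 452 and 506 in Kir2.1 mice. The groups did not overlap, by a margin of 3 normalized counts after rounding. This gave a log2 fold change of 0.76 (SE 0.26) and an adjusted p of 0.335. Exons of Rsph10b overlap Gm42421 and Pms2 on the same strand and Gm17135 on the opposite strand. Of its 40-base stretches 10.1% were shared with Gm42421, and the part of these overlaps in its value was not tested. The abundant head genes Rsph1 (0.05, SE 0.14) and Rsph9 (-0.13, SE 0.09) had intervals that spanned 0, and Rsph3a and Rsph3b were at 0.11 (SE 0.16) and 0.08 (SE 0.06).

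Lower values at an unadjusted p under 0.05 were seen in Cfap100 and Cfap69. Cfap100 (chr6:90403479-90428797, minus strand), part of a complex that regulates inner arm dyneins, measured 751, 555 and 630 normalized counts in control mice and 405, 377 and 320 in Kir2.1 mice. All Kir2.1 mice lay below all control mice. Its log2 fold change was -0.81 (SE 0.15), the unadjusted p was 0.000792 and the adjusted p was 0.095, so it passed a threshold of 0.10, as did 0.863% of all genes, but not that of 0.05. Over the alternatives tried its adjusted p ranged from 0.0684 to 0.247. An exon of Cfap100 overlaps Zxdc on the opposite strand, and the Kir2.1 libraries do not keep strand; Zxdc itself ranged from 1109 to 1265 in control mice and from 1101 to 1152 in Kir2.1 mice (-0.06, SE 0.08). Cfap73, which acts in the same complex as Cfap100, was on the other side at 0.46 (SE 0.24). It ranged from 84.4 to 135 in control mice and from 118 to 180 in Kir2.1 mice, and it too has an exon overlap on the opposite strand, with Ddx54. The other arm regulators, Cfap43, Cfap44, Cfap57 and Cfap70, lay between 0.18 and 0.25.

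Cfap69 measured 5299, 4629 and 4977 normalized counts in control mice and 4224, 4211 and 4216 in Kir2.1 mice. The 3 Kir2.1 mice were nearly equal and all lay below the controls. Their log2 fold change was -0.23 (SE 0.07), with an adjusted p of 0.283. Beside this, all 10 markers of mature OSNs had lower values in Kir2.1 mice, 3 of them past the threshold (Omp, S100a5 and Slc17a6), with a median log2 fold change of -0.44. Their summed level was 122278 to 137019 in control mice and 85288 to 99144 in Kir2.1 mice, none was at 0 in any mouse, and their part in the Cfap69 value was not tested. The remaining 6 genes of the central apparatus, which surrounds the central pair, lay between -0.04 and 0.31.

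Proteins bound inside the doublets showed values from -0.03 for Cfap20 (SE 0.07) to 0.45 for Cfap53 (SE 0.23) and Cfap161 (SE 0.17), 6 of 7 above 0 with a median of 0.21. Without Kir2.1 mouse 1 there were 4 of 7 above 0, with a median of 0.08. Cfap126, the most abundant of them per kb, measured 1476, 1505 and 1595 in control mice and 2260, 1548 and 1499 in Kir2.1 mice. Only Kir2.1 mouse 1 stood apart. The 7 Cfap genes of other or unassigned place had a median of 0.01 (-0.03 without Kir2.1 mouse 1), from -0.21 for Cfap410 (SE 0.14) to 0.61 for Cfap299 (SE 0.31).

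Among Kir2.1 mice, 1 mouse held most of the highest values. Kir2.1 mouse 1 had the highest value of the 6 mice for 40 of 59 members and for 11 of 15 heavy chains, whereas it was highest for 20% of all genes tested. The mean log2 level over members was 9.90 in this mouse, 9.55 and 9.61 in the other Kir2.1 mice and 9.46, 9.46 and 9.59 in control mice. Between groups the mean level was 0.18 higher in Kir2.1 mice, and 0.07 higher without Kir2.1 mouse 1. At the other end, control mouse 1 was lowest for 27 of 59 members and for 16.1% of all genes. In that control mouse the vomeronasal genes summed to 11186, as given above, and with their mean level as a covariate the members at an unadjusted p under 0.05 went from 9 to 4 and the heavy chain median from 0.39 to 0.28. The 4 members were 6.78% of those tested, below the 9.12% of all genes in that fit. The covariate was 6.06 in control mouse 1 and between 2.42 and 2.51 in the others, so it mostly set that mouse apart. Without control mouse 1 there were 5 members (8.47%, all genes 9.2%), and the heavy chain median was also 0.28. An adjustment for vomeronasal signal and the loss of this mouse therefore cannot be told apart.

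**Figure D3:**
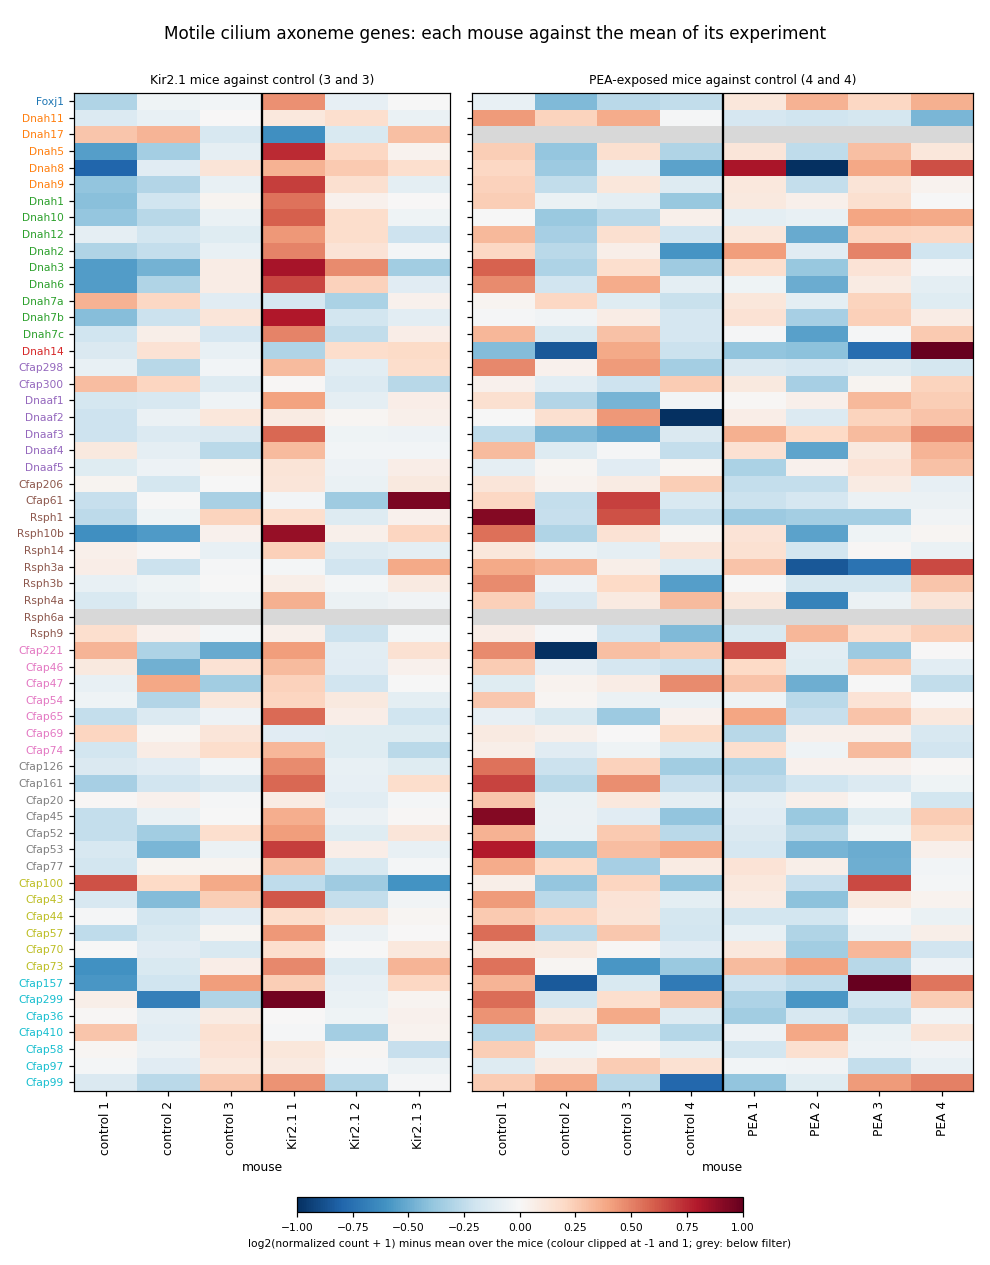
Deviation of each mouse (columns) from the mean over the mice of its experiment for each member (rows), in log2 units of the normalized count plus 1; red is above and blue below the mean, the black line divides control from treated mice, and grey marks members below the filter. Kir2.1 mouse 1 is the highest of 6 for 40 of 59 members, and PEA control mouse 1 is the highest of 8 for 27 of 58.

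Other markers also stood out in Kir2.1 mouse 1. A list of 49 further axonemal genes, such as docking complex, tektin and ruler proteins, summed to 66423 in this mouse and to between 50670 and 54956 in the rest of the experiment. Markers of basal cells, all 5 of which had higher values in Kir2.1 mice (none past the threshold), summed to 11125 in it, 5755 and 4320 in the other Kir2.1 mice and 3878 to 5895 in control mice. Blood markers summed to 33607 in it, compared with 20242 and 26227 in the other Kir2.1 mice and 11005 to 19896 in control mice, and all 5 were higher in the group with a median of 0.88, none past the threshold. Markers of secretory cells of respiratory epithelium summed to 345407 in it, within the 213458 to 352985 of control mice; Scgb1a1, a defining club cell gene, was at 0 in at least 1 mouse. Their mean log2 level, in which each marker counts alike, was 12.89 in Kir2.1 mouse 1, the highest of the 6 mice, and between 11.77 and 12.47 in the others. The part of these cell types in the axonemal values was not tested.

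Lists for other aspects of cilia were read beside the members. Of the 48 further axonemal genes tested 36 were higher in Kir2.1 mice and 12 lower, none past the threshold, with a median of 0.14. Of 13 regulators of multiciliated cell fate 8 were higher and 5 lower, with a median of 0.08. Of the 22 intraflagellar transport and BBSome genes, which serve OSN cilia as well as motile cilia, 5 were higher and 17 lower, with a median of -0.06. Markers of sustentacular cells (median 0.03), immature OSNs (-0.10) and muscle (0.17) and 6 cartilage and bone markers (0.49) held no gene past the threshold. The 6 cartilage and bone markers were all higher in Kir2.1 mice. Their summed level there, 8261 to 8743, lay within the 4498 to 10656 of control mice. Dnaic2, the intermediate chain known today as Dnai2 and looked up after the tables were seen, ranged from 1125 to 1398 in control mice and from 1489 to 2185 in Kir2.1 mice (0.50, SE 0.15, adjusted p = 0.287), and Dnaic1 was at 0.25 (SE 0.25).

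**Figure D4:**
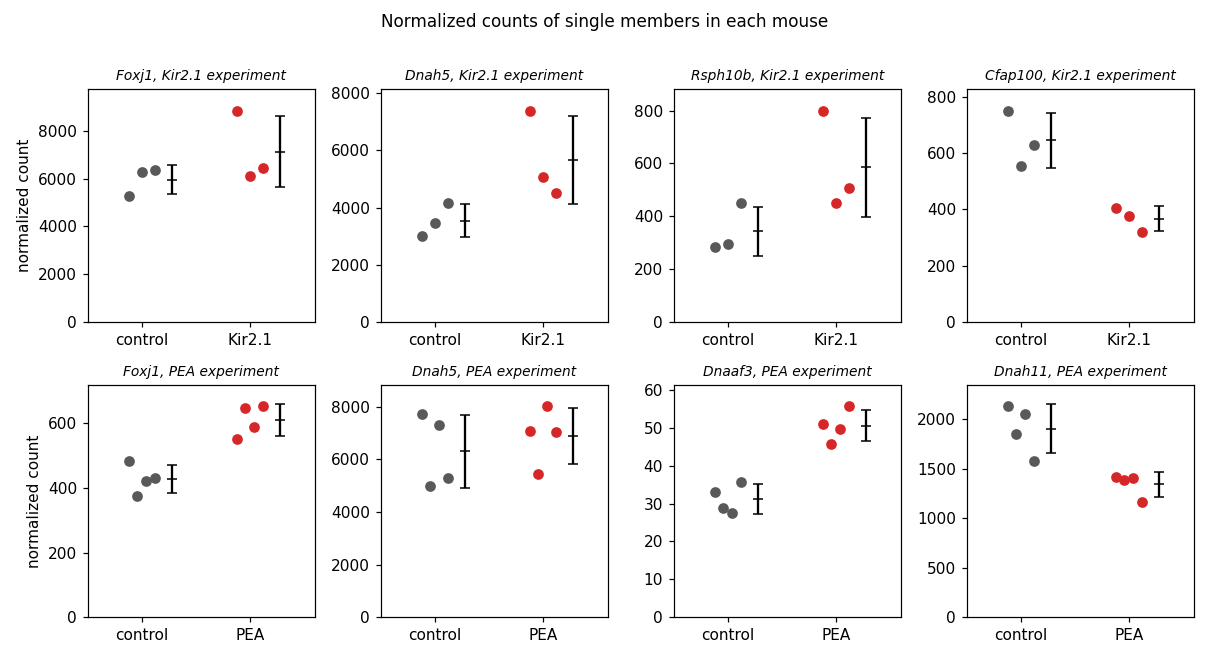
Normalized counts in each mouse (points) with the group mean and SD (bars beside them) for 4 members in the Kir2.1 experiment (top; 3 control, 3 Kir2.1) and 4 in the PEA experiment (bottom; 4 control, 4 PEA-exposed); every y axis starts at 0. Cfap100 lies lower in all Kir2.1 mice, at 320 to 405 against 555 to 751, and Foxj1 lies higher in all PEA-exposed mice, at 552 to 653 against 375 to 484.

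In PEA-exposed mice again none of the 58 members tested passed an adjusted p of 0.05, compared with 0.179% of 17322 genes, nor did any pass 0.10, compared with 0.739%. At an unadjusted p under 0.05 there were 5 members (8.62%), and the share of all genes was 15.0%. Foxj1 and Dnaaf3 were higher, where 8.93% of all genes were, and Dnah11, Cfap36 and Cfap206 were lower, where 6.04% were. Groups did not overlap for 3 members (5.17%, all genes 9.32%), 2 of them higher (all genes 5.46%) and 1 lower (all genes 3.86%). The log2 fold change was above 0 for 27 of 58 members (46.6%, all genes 46.5%), with a median of -0.05 and of -0.02 for all genes.

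Foxj1 was the member with the lowest unadjusted p. It measured 484, 375, 421 and 430 normalized counts in control mice 1 to 4 and 552, 647, 587 and 653 in PEA-exposed mice 1 to 4. Every exposed mouse was above every control mouse. The log2 fold change was 0.51 (SE 0.11, 95% interval 0.27 to 0.76), the unadjusted p was 0.000907 and the adjusted p was 0.104. Its adjusted p ranged from 0.0524 to 0.258 over the alternatives. The sequences of Foxj1 were not shared with another gene at either read length.

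Dnah11 (chr12:117877982-118199043, minus strand) had lower values in exposed mice. It measured 2131, 1852, 2055 and 1574 in control mice and 1413, 1382, 1404 and 1159 in exposed mice. The groups did not overlap, with control mouse 4 closest to the exposed mice. On the log2 scale the difference was -0.50 (SE 0.12), with an adjusted p of 0.119. The adjusted p was 0.0545 with sample weights, 0.065 to 0.288 with 1 mouse left out and 0.29 with the vomeronasal covariate. Without the 4 mice high in vomeronasal genes the difference was -0.26, but the only control left was control mouse 4, the lowest of the controls. An exon of Dnah11 overlaps Cdca7l on the opposite strand, which ranged from 248 to 369 in control mice and from 210 to 267 in exposed mice (-0.37, SE 0.16, adjusted p = 0.307); the PEA libraries keep strand. The other outer arm chains were at 0.14 (Dnah5, SE 0.17), 0.39 (Dnah8, SE 0.36) and 0.02 (Dnah9, SE 0.13). For Dnah5 the values were 7709, 4982, 7297 and 5278 in control mice and 7079, 5462, 8029 and 7049 in exposed mice, which overlap throughout.

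Of the 9 inner arm chains 6 were above 0, with a median of 0.06, from -0.28 for Dnah6 (SE 0.18) to 0.30 for Dnah2 (SE 0.21). The near-copies Dnah7a (0.06, SE 0.13), Dnah7b (0.07, SE 0.13) and Dnah7c (-0.15, SE 0.19) lay close together here. Dnah14 stood at 93.1 in PEA-exposed mouse 4 and between 7.2 and 18.2 in the other 7 mice, and its log2 fold change of 0.55 (SE 0.70) became -0.25 without that mouse.

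Assembly factors had 6 of 7 values above 0, with a median of 0.08. Dnaaf3 (chr7:4522933-4532453, minus strand), which is needed for assembly of the arms, measured 33, 28.7, 27.4 and 35.8 in control mice and 51, 45.7, 49.5 and 55.7 in exposed mice. The groups did not overlap, although the gene was low in this experiment. Expressed as a log2 fold change this was 0.68 (SE 0.19, adjusted p = 0.151). It shares exon sequence on the same strand with Tnni3, whose mean was 8.89 in control mice and 12.9 in exposed mice; of the stretches of Dnaaf3, 2.15% at 40 bases and 0% at 150 bases were shared. Cfap298 was on the low side at -0.31 (SE 0.17), and its 4 exposed mice, between 396 and 409, were closer together than its control mice, between 354 and 624.

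Of 9 radial spoke genes 8 were below 0, with a median of -0.24, and all 7 genes bound inside the doublets were below 0, with a median of -0.16; none passed the test. Without control mouse 1 the genes inside the doublets had a median of -0.04, with 5 of 7 below 0. When the 4 mice high in vomeronasal genes were left out, 1 control mouse remained. The genes inside the doublets then lay at 0.04 (Cfap20), 0.32 (Cfap45), 0.22 (Cfap52), -0.68 (Cfap53), -0.23 (Cfap77), 0.37 (Cfap126) and 0.10 (Cfap161). Without PEA-exposed mouse 2 the spoke genes had a median of -0.07, with 6 of 9 below 0. Rsph1 measured 944, 425, 777 and 423 in control mice and 388, 394, 394 and 488 in exposed mice, with control mice 1 and 3 well above the rest (-0.54, SE 0.25, adjusted p = 0.344). Cfap53 had the same log2 fold change (-0.54, SE 0.26), with 48.8 to 113 in control mice and 45.7 to 67 in exposed mice. Rsph9, in contrast, was at 0.29 (SE 0.15), from 269 to 382 and from 328 to 459. Rsph3a varied from 126 to 360 within the exposed group alone, and Rsph3b was at -0.04 (SE 0.20). Cfap206, which sits at the base of a spoke, ranged from 1024 to 1183 and from 846 to 1059 (-0.24, SE 0.10, adjusted p = 0.319).

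Central apparatus genes were spread around 0, from -0.23 for Cfap47 (SE 0.18) to 0.28 for Cfap65 (SE 0.15), with Cfap69 at -0.17 (SE 0.10) and Cfap221 at 0.09 (SE 0.37). Arm regulators ran from -0.21 for Cfap44 (SE 0.11) to 0.26 for Cfap100 (SE 0.21). Cfap100 measured 235, 173, 263 and 171 in control mice and 243, 193, 358 and 223 in exposed mice, which overlap. In the remaining class Cfap36 ranged from 893 to 1331 in control mice and from 767 to 950 in exposed mice (-0.40, SE 0.14, adjusted p = 0.228). Cfap157 (0.68, SE 0.36) and Cfap299 (-0.42, SE 0.22) marked its ends, and Cfap157 measured 89.4 to 259 in exposed mice.

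Here too single mice carried many extremes. Control mouse 1 was the highest of 8 mice for 27 of 58 members, compared with 17.3% of all genes, and PEA-exposed mouse 2 was lowest for 20, compared with 18% of all genes. Mean log2 levels over members ran from 8.31 to 8.72 in control mice and from 8.26 to 8.60 in exposed mice, and the group means differed by -0.01. Without control mouse 1 the difference was 0.07 and 33 of 58 members were above 0. Control mouse 1 also had the highest sum of vomeronasal genes (9832), of respiratory secretory markers (142081, compared with 79781 to 99563 in the other 7 mice) and of cartilage and bone markers (2844, compared with 1010 to 1512). The mean log2 level of the secretory markers was 11.08 in this mouse, however, below the 11.15 to 11.37 of all exposed mice. When the 4 mice with high vomeronasal values were left out, a choice made after the data were seen that leaves 1 control mouse, 41 of 58 members were above 0 (all genes 50.2%) and the mean level was 0.15 higher in exposed mice. Their part in the member values was not tested beyond this.

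Of the further axonemal genes 13 of 48 were higher in exposed mice and 35 lower, with a median of -0.14. The multiciliated fate regulators split 6 and 7, with a median of -0.09, and the transport and BBSome genes 8 and 14, with a median of -0.10. Markers of respiratory secretory cells had 6 of 9 values above 0, and the mucin gene Muc5ac passed the threshold; Scgb1a1 was again at 0 in at least 1 mouse. The 5 basal cell markers had no value below 0 (median 0.25), and 6 of 7 sustentacular markers were above 0 (median 0.33), none past the threshold. Mature OSN markers were split 5 and 5 with a median of -0.02, immature OSN markers had a median of 0.07 and blood markers of 0.15, and the cartilage and bone markers were all below 0 with a median of -0.21. Of the muscle markers Myh3 alone reached the filter, at -0.28. The vomeronasal genes were below 0 for 117 of 119 genes tested here and for 88 of 92 in Kir2.1 mice, with medians of -1.52 and -1.14 and none past the threshold. Of 339 such genes only these reached the filter. Their signal was high in Kir2.1 control mouse 1, and in PEA control mice 1 to 3 and PEA-exposed mouse 1. These mice lifted genes past the filter, so the counts cannot be read as an effect of either treatment. Dnaic2 was at 0.41 (SE 0.16, adjusted p = 0.279) and Dnaic1 at -0.08 (SE 0.17).

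The members varied between mice of a group at least as much as other genes. Their median SD within groups was 0.23 log2 units in the Kir2.1 experiment, compared with 0.18 for all genes tested and 0.13 for genes with a mean log2 level that corresponds to at least 100 normalized counts. In the PEA experiment it was 0.28, compared with 0.26 and 0.20. Rsph3b was the steadiest in Kir2.1 and control mice (0.047), while Cfap61, a spoke-associated protein, was the most variable (0.49), with 1773 in Kir2.1 mouse 3 and 720 to 921 in the other 5 mice.

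Set side by side, 58 members had a value in both experiments. Of these, 21 were above 0 in both, 4 were below 0 in both, 27 were above 0 in Kir2.1 mice and below in PEA-exposed mice, and 6 the reverse. Of members described above, Cfap100 was at -0.81 and 0.26, Rsph10b at 0.76 and -0.21, Dnah11 at 0.14 and -0.50, and Foxj1 at 0.25 and 0.51, in Kir2.1 and PEA-exposed mice. The difference between the experiments was not tested, because their tables were scaled separately.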

How the data were processed

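The authors estimated transcript counts with Salmon v1.3.0 against GRCm38 (Ensembl release 100), summed them per gene, imported them with tximport and normalized them per experiment with DESeq2 v1.30.0; the submitters' notes name mm10. The deposited values are these normalized counts, a signal that is not whole reads. Kir2.1 libraries were poly-A selected and unstranded, PEA libraries ribosomal-RNA depleted and stranded. The methods give a reverse-stranded Salmon setting for all samples. If part of the Kir2.1 reads was left out by it, the tables cannot show it.

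Each experiment was tested apart with limma 3.58.1 in R 4.3.3 (eBayes with trend) on log2(normalized count + 1), using genes with a mean of at least 10, with Benjamini-Hochberg adjustment over all of them at 0.05. Fold changes of low genes are understated on this scale. The fits were checked on simulated data. Lengths, positions and overlaps came from GENCODE vM21, which matched 57 members by symbol and 3 by an older one. Members and lists were chosen with earlier results of these data known. Text genes were Foxj1, the near-copies and, in each class and experiment, the highest per kb and those with the largest rise and fall, 34 in all; others are named where a count needed them or after their values were seen. Alternatives varied pseudocount, filter, variance model, weights, scaling, replicate block and single mice; the ones on vomeronasal genes were chosen after seeing the data.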

Additional observations from a re-analysis of the deposited data

Results flagged for a closer look

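In the groups of 4 mice of the PEA experiment, 4 of 70 groups of values held a mouse far from the others, where the gap to the nearest mouse, as a share of the whole range, exceeded Dixon's 95% critical value. Chance gives about 1 such group in 20. All 4 were among the PEA-exposed mice. Cfap126 was 230 normalized counts in PEA-exposed mouse 1 and 288 to 293 in the others. Mouse 4 stood apart for the remaining 3 genes: Dnah11 was 1159 in it and 1382 to 1413 in the others, Dnah14 was 93.1 in it and 7.7 to 10.2 in the others, and Rsph1 was 488 in it and 388 to 394 in the others. Groups of 3 mice are too small for this comparison.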

How the results depend on the processing

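No member passed an adjusted p of 0.05 in either experiment under any alternative run. At 0.10 the main fit held 1 in Kir2.1 mice, Cfap100, and 0 in PEA-exposed mice. With sample weights Foxj1 (0.0524), Dnah11 (0.0545) and Dnaaf3 (0.0785) had an adjusted p under 0.10 in PEA-exposed mice. The lowest adjusted p of any member was 0.0684 (Cfap100, quantile normalization) in Kir2.1 mice and 0.0524 (Foxj1, sample weights) in PEA-exposed mice. All genes past 0.05 numbered 70 in Kir2.1 mice (20 without trend, 171 at 0.10, 22 with the vomeronasal covariate, 23 to 44 with 1 mouse left out) and 31 in PEA-exposed mice (52 without filter, 117 with sample weights, 128 at 0.10, 19 with the covariate, 49 without the 4 mice high in vomeronasal genes, whose lone control is assumed to vary like the rest, and 19 to 43 with 1 mouse left out). Members at an unadjusted p under 0.05 numbered 3 to 15 in Kir2.1 mice with 1 mouse left out (3 without control mouse 2, or 5.08% against 7.95% of all genes; 4 without Kir2.1 mouse 1, 6.78% against 8.09%; 15 without control mouse 3, 25.4% against 11.8%) and 4 to 8 in PEA-exposed mice, 11 there with sample weights and 8 with quantile normalization or median centring; in some of the Kir2.1 fits their share thus fell below that of all genes. The mean level difference stayed between 0.07 and 0.25 in Kir2.1 mice and between -0.06 and 0.07 in PEA-exposed mice with 1 mouse left out. Replicate numbers are shared across groups by separate mice. Deviations from group means of mice with one number correlated at -0.06, -0.01 and 0.16 (Kir2.1) and 0.13, -0.02, -0.05 and 0.10 (PEA). In the 2 experiments, 2 of 6 and 4 of 8 mice correlated best with their own number. Low correlations over so few mice cannot decide whether the numbers pair them. With a replicate block, 0 members and 9 genes in all passed in Kir2.1 mice, compared with 70 genes without it. In PEA-exposed mice 0 members and 23 genes passed, compared with 31 genes without it.

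Some named members changed sign under some settings, none of them past the threshold, and the cause was not tested. With 1 mouse left out, log2 fold changes in Kir2.1 mice ran from -0.0016 to 0.29 for Cfap126, -0.08 to 0.02 for Cfap20, -0.05 to 0.04 for Cfap36, -0.14 to 0.22 for Cfap47, -0.04 to 0.21 for Dnah14, -0.06 to 0.18 for Rsph1 and -0.05 to 0.24 for Rsph3a. In PEA-exposed mice they ran from -0.24 to 0.06 for Cfap126, -0.30 to 0.27 for Cfap221, -0.07 to 0.12 for Cfap300, -0.25 to 0.90 for Dnah14, -0.18 to 0.14 for Dnah3, -0.01 to 0.14 for Dnah7a, -0.0017 to 0.19 for Dnah7b, -0.26 to 0.0025 for Dnah7c and -0.23 to 0.11 for Rsph3b. Under quantile normalization Cfap36 was 0.01 and Cfap47 -0.04 in Kir2.1 mice, and Cfap300 was -0.03 and Dnah3 0.0024 in PEA-exposed mice. Under median centring Cfap47 was -0.01 in Kir2.1 mice and Cfap300 -0.04 in PEA-exposed mice, and with sample weights Cfap47 was -0.03 in Kir2.1 mice. With the vomeronasal covariate, Cfap36 was 0.00034, Cfap47 -0.01, Dnah14 -0.01 and Rsph1 -0.07 in Kir2.1 mice, and Cfap300 -0.02, Dnah3 0.12 and Rsph3b 0.12 in PEA-exposed mice. Without the 4 mice high in vomeronasal genes, the PEA values were 0.37 for Cfap126, 0.04 for Cfap20, -0.42 for Cfap221, 0.18 for Cfap298, -0.28 for Cfap300, 0.09 for Cfap44, 0.27 for Dnah3, 0.07 for Dnah7c and 0.52 for Rsph3b.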
